A study of Mus musculus with 4 samples.

Results

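The liver sinusoid is lined by endothelial cells that take up waste molecules from the blood. They do so with scavenger and endocytic receptors, proteins that bind a ligand at the cell surface and carry it inwards to the lysosome. Kupffer cells, the resident macrophages of the sinusoid, share this clearance work, and the sinusoid itself is zoned, since blood flows from the portal to the central vein. The genes of 9 such receptors (Stab1, Lyve1, Mrc1, Clec4g, Fcgr2b, Cd36, Msr1, Cd209b and Scarb1) were taken by symbol from the 33696 genes of the count matrices, and all 9 were found. Stab1 and Msr1 take up modified proteins and lipoproteins, Lyve1 binds hyaluronan, and Mrc1, Clec4g and Cd209b are C-type lectins that bind sugars. Fcgr2b is an inhibitory receptor for immune complexes, and Cd36 and Scarb1 are class B scavenger receptors for fatty acids and for high-density lipoprotein.

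Single cells were sequenced from the livers of 2-month-old mice with the genotype label S2, which the study describes as Stab2-CrexERT2 and R26-LSL-tdT mice given tamoxifen at embryonic day 9.5, so that cells using the Stab2 locus then, and their descendants, carry tdTomato. The CrexERT2 sequence sits within the Stab2 locus itself. One library held sorted CD45+tdTomato+ cells (batch 1) and the other, labelled control, CD45+ cells without tdTomato (batch 2). With 1 library per condition there is no replicate check and no test, sort and batch therefore cannot be told apart, and every interval below covers counting error only.

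After the cell filter 17509 and 18173 cells remained, with 203366009 and 156771260 UMIs (unique molecular identifiers, each standing for 1 captured RNA molecule), and 80 barcode sequences occurred in both libraries. Levels are CPM, the UMIs of a gene per 1000000 UMIs of the gate. Cells entered a gate by the summed level of marker panels that contained none of the 9 genes. The sinusoidal endothelial gate held 8069 cells of the tdTomato+ library, 46.1% of it, although CD45+ cells had been sorted, and 21 cells of the tdTomato− library, too few to describe. Endothelial markers that no gate used were present in it (Stab2 at 3278 CPM, Ramp2 at 1284, Nrp1 at 1586 and Cldn5 at 389, in CPM), as was Ptprc, the gene of CD45, at 221 CPM against 1505 CPM in T cells. Within it 5913 cells had no UMI of Ptprc or of the T cell panel. Kupffer cells (398 and 81 cells in the tdTomato+ and tdTomato− library), classical monocytes (128 and 144), type 1 conventional dendritic cells (cDC1, 176 and 80) and T cells (2037 and 8746) were described in both libraries, and nonclassical monocytes (85 cells) in the tdTomato+ library. The unused Kupffer markers Adgre1, Timd4, Folr2, Slc40a1 and Cd163 lay at 197 CPM or more in both Kupffer gates. Gates for cDC2 and plasmacytoid dendritic cells held 29 and 33 tdTomato+ cells and were not described there. A further 6225 and 8670 cells fell in no gate.

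Promoter sequences of 6 of the 9 genes were in the RefSeq table used (GRCm38.p6), and 3 of them are shown because their genes behaved differently along the sinusoid. Each run holds the 250 bases before the listed start site on the gene's strand, and capitals mark a match to one of 4 short motifs searched on both strands. These were AGATAA, read by transcription factors of the GATA family, and GAGGAA, read by ETS factors such as PU.1. The others were TGCTGA, part of the site of MAF factors, and TATAAA, the core of the TATA box. Clec4g (chr8:3720652-3720901, minus strand) was similar in both zones, whereas Cd36 (chr5:17835897-17836146, minus strand) and Cd209b (chr8:3926842-3927091, minus strand) were higher in the periportal zone.
Clec4g: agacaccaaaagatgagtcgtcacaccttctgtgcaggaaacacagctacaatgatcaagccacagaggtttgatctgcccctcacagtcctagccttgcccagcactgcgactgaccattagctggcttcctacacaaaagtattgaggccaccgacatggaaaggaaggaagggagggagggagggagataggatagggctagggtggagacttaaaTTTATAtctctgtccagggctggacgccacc
Cd36: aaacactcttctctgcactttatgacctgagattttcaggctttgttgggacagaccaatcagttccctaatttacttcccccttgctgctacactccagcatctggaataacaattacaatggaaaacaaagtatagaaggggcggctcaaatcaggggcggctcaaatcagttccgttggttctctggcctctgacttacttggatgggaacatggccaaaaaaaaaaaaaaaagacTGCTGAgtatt
Cd209b: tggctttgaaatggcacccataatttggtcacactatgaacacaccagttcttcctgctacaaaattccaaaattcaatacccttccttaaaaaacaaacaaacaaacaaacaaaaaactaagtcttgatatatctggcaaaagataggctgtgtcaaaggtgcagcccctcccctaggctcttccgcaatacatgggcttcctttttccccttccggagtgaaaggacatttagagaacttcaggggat
Clec4g had the TATA letters on the opposite strand 31 to 26 bases before its start, and Cd36 had the MAF letters 11 to 6 bases before its start, while Cd209b held none of the 4 motifs in this window. The table's Cd36 start lies inside the annotated gene, which has more than 1 start site. Over all 32851 promoters the shares with a match were 9.99% for AGATAA, 23.3% for GAGGAA, 16.1% for TGCTGA and 12.4% for TATAAA. Among the 6 members, AGATAA occurred in 0, GAGGAA in 2 (Stab1 and Mrc1), TGCTGA in 2 (Stab1 and Cd36) and TATAAA in 1. These matches describe letters only. By the GENCODE M21 annotation of GRCm38, 3 of the genes lie on chromosome 8 (Clec4g at 3707064-3720651, Cd209b at 3917655-3926844 and Msr1 at 39581685-39642673) and 2 on chromosome 5 (Cd36 at 17781690-17888801 and Scarb1 at 125277087-125341094). Stab1 lies on chromosome 14 (31139013-31168641), Lyve1 on 7 (110850607-110863239), Mrc1 on 2 (14229392-14332057) and Fcgr2b on 1 (170958617-170976547).

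In the sinusoidal endothelial gate the 9 genes together made up 1.22% of all UMIs, against 0.18% in Kupffer cells of either library and 0.0217% in T cells of the tdTomato+ library. Each of 7 genes had its highest tdTomato+ level in this gate among the cell type gates described, and the other two, Msr1 and Scarb1, had it in Kupffer cells, although periportal endothelial cells taken alone exceeded Kupffer cells in Msr1 (797 against 440 CPM). CPM values of a 5′ tag assay are not scaled by gene length and are compared here within a gene only.

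Stab1 and Lyve1, the receptors of modified proteins and hyaluronan, were lower in tdTomato+ Kupffer cells than in the endothelium. Stab1 lay at 921 CPM in sinusoidal endothelial cells (95% exact Poisson interval 914 to 928) and at 56.7 CPM in tdTomato+ Kupffer cells (50.7 to 63.2), a 16.3-fold difference. Lyve1 lay at 610 CPM against 12.03 CPM, a 50.7-fold difference, but tdTomato− Kupffer cells were at 244 CPM, and 5 of those 81 cells, described further on, at 1880 CPM. Stab1 in Kupffer cells was above its level in T cells of the same library (13.8 CPM, interval 12.2 to 15.6), whereas for Lyve1 the interval in Kupffer cells (9.36 to 15.2 CPM) overlapped that in T cells (9.02 to 11.96 CPM).

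Among the lectins, Clec4g separated the gates most widely and Mrc1 least. Clec4g was at 4456 CPM in sinusoidal endothelial cells and at 44.4 CPM in tdTomato+ Kupffer cells, a 100.3-fold difference (log2 6.65, interval 6.47 to 6.83). Mrc1, the mannose receptor, was at 2028 CPM and 940 CPM, 2.16-fold apart. Cd209b was scarce in both, at 29.4 and 9.76 CPM, 3.02-fold apart. Mrc1 was thus among the members present in both clearance cell types.

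Fcgr2b lay at 3192 CPM in the sinusoidal gate and 43.2 CPM in tdTomato+ Kupffer cells, 73.8-fold apart. Its activating relatives Fcgr1, Fcgr3 and Fcgr4 lay the other way round, at 0.841, 5.39 and 2.55 CPM in the endothelium and 286, 585 and 413 CPM in Kupffer cells. The Fc receptor genes thus divided between the gates by type.

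The scavenger receptors of classes A and B did not follow the endothelial pattern as a group. Cd36 was 11.9-fold higher in the sinusoidal gate (476 against 39.9 CPM). Msr1 was at 351 against 440 CPM (log2 -0.33, interval -0.39 to -0.27) and Scarb1 at 127 against 218 CPM (log2 -0.77, interval -0.86 to -0.69), both lower in the endothelium by less than the 2-fold limit. Taking all 9, 7 were at least 2-fold higher in the sinusoidal gate with an interval that excluded no difference and 0 were lower. Of 10321 genes with at least 10 CPM in either gate, 22.5% were higher and 14.2% lower by the same rule, and the median log2 ratio was 3.58 over the 9 members and 0.25 over all genes.

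Other receptors of the same kind, a list of 38 genes of which 25 reached the level, split towards Kupffer cells. Higher in the endothelium were 5: Stab2, the partner of Stab1 (3278 against 213 CPM), the scavenger receptor Scarf1 (151 against 52.5), Pla2r1, a relative of the mannose receptor (196 against 2.79), the antibody recycling receptor Fcgrt (844 against 344) and the insulin receptor Insr (178 against 66.2). Lower were 14, among them Cd68, Cd163, Cd209f, Cd209g, Clec4f, Clec7a, Fcgr1, Fcgr3, Fcgr4, Lrp1, Timd4, Tfrc and Marco, with Marco, a class A scavenger receptor like Msr1, at 0.524 against 321 CPM. The median log2 ratio of the 25 was -3.01. Clec4f was part of the Kupffer panel, so its difference was fixed by the gate. Of 20 genes of the endocytic machinery, 7 were higher in the endothelium and 1 lower, where 22.5% of all 10321 genes were higher and 14.2% lower. The median log2 ratio of the 20 was 0.30, close to the 0.25 of all genes. The endocytic adaptor Dab2 (697 against 193 CPM), the lysosomal protease Ctsl (3067 against 387) and Cavin1 of caveolae (33.7 CPM against 0 UMIs, at least 64.45-fold with a floor of 3 counts in the Kupffer gate) were among the higher, and the lysosomal protease Ctsb was lower (990 against 5400 CPM). Ehd3, also higher, was used to define the sinusoidal gate.

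**Figure D1:**
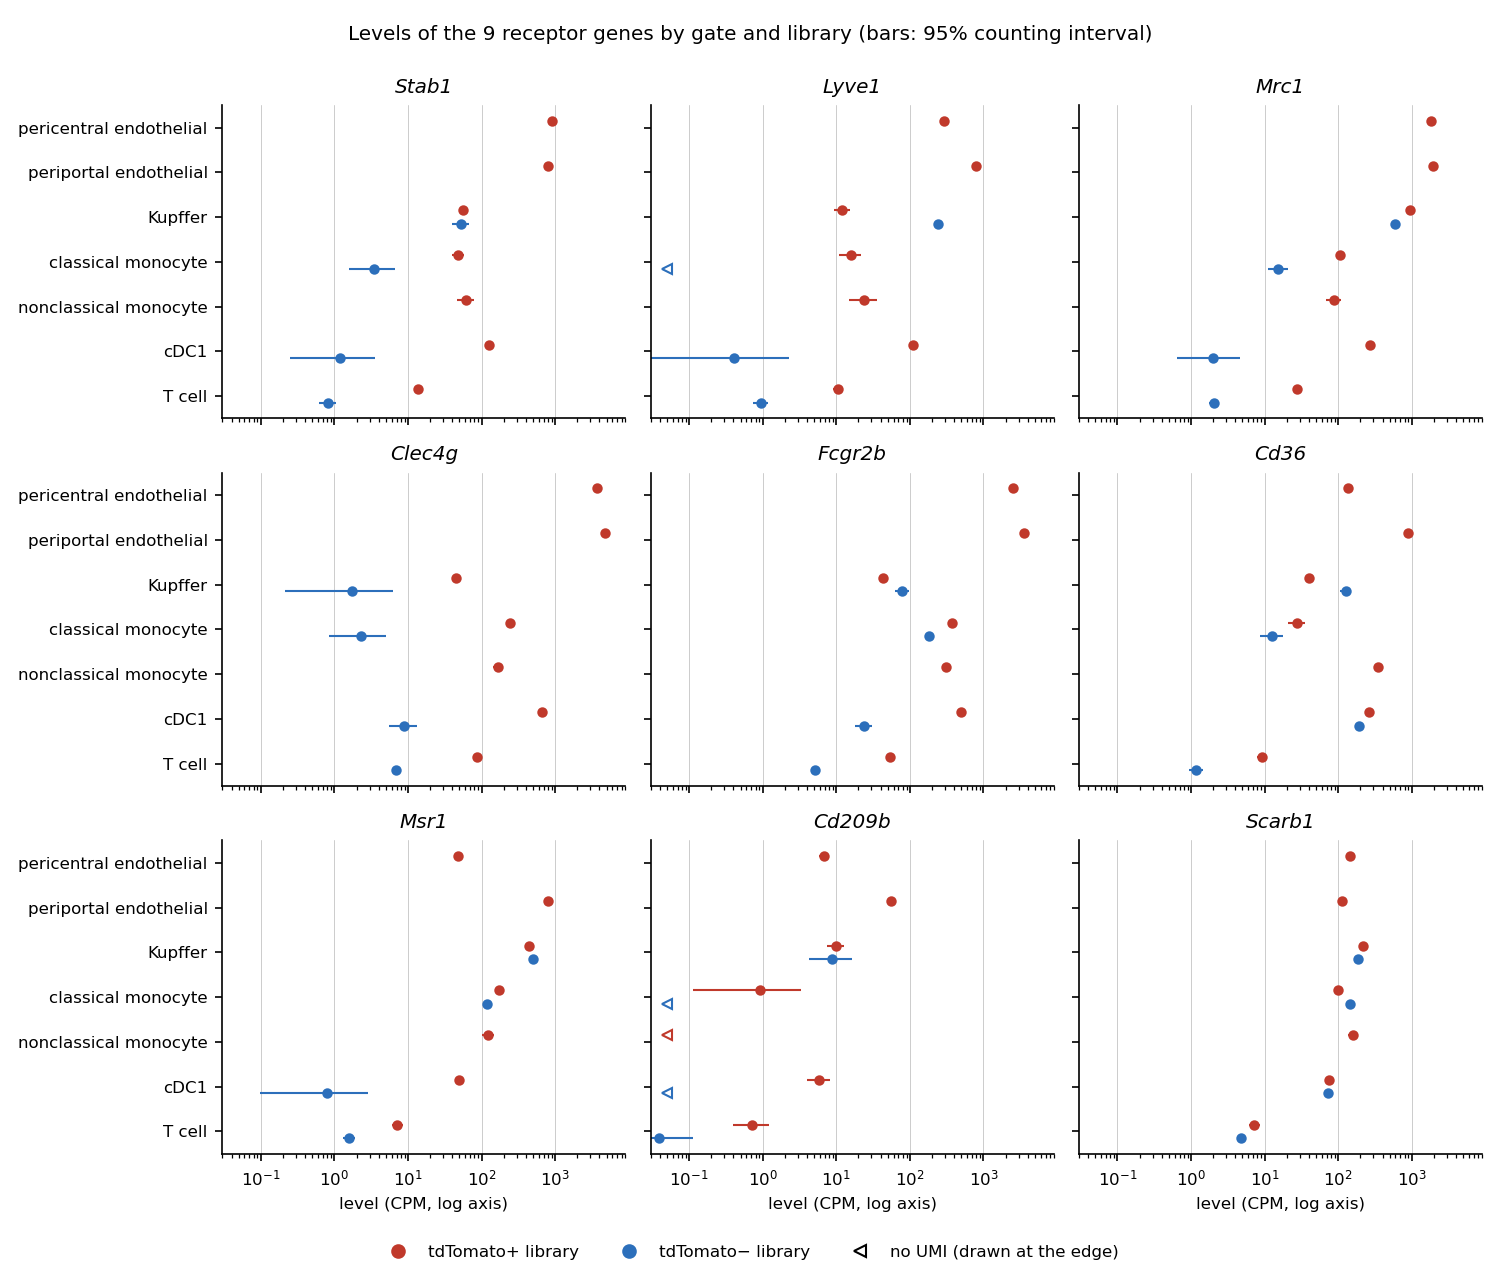
Level of each of the 9 receptor genes (CPM, log axis) by gate, in the tdTomato+ (red) and tdTomato− (blue) library. Bars are 95% exact Poisson intervals and open triangles mark 0 UMIs. Scarb1 lay within 114 to 218 CPM in endothelial and Kupffer gates, while Clec4g lay at 3745 CPM in pericentral and 4778 CPM in periportal endothelial cells and at 44.4 CPM or less in Kupffer cells.

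Along the sinusoid the receptors differed more among themselves. Cells were placed by the UMIs of a pericentral panel (Wnt2, Rspo3 and others) and a periportal panel (Efnb2, Dll4 and others), giving 2696 pericentral, 2834 periportal and 2539 unresolved cells with median depths of 8681.5, 7227 and 8284 UMIs. Msr1 was at 47.6 CPM in pericentral cells and 797 CPM in periportal cells, 16.7-fold higher (log2 4.07, interval 3.98 to 4.15). Cd209b was 8.22-fold higher in periportal cells (6.72 and 55.3 CPM), Cd36 6.56-fold (134 and 880 CPM) and Lyve1 2.72-fold (289 and 786 CPM). These 4 members spanned a class A and a class B scavenger receptor, a lectin and a hyaluronan receptor. The other 5 differed by less than 2-fold, at log2 -0.22 for Stab1, 0.10 for Mrc1, 0.35 for Clec4g, 0.51 for Fcgr2b and -0.33 for Scarb1. So 4 of 9 were higher and 0 lower in periportal cells, against a background of 1.80% of 9697 genes higher and 3.19% lower.

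The other receptor list had 14 genes with a level, of which Insr (289 against 137 CPM) and Colec12, a class A-like scavenger receptor (12.7 against 6.06 CPM), were higher in periportal cells and none was lower. None of the 20 machinery genes passed 2-fold in either direction. Stab2 was at 2801 CPM in periportal and 3135 CPM in pericentral cells. The zonal difference therefore concerned individual receptors, and the measured uptake machinery was within 2-fold.

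Cells were also divided into 6 bins of the periportal share of panel UMIs. Msr1 increased through every bin, from 24.9 CPM at 0 to 10% periportal UMIs over 71.3, 165, 355 and 601 to 960 CPM at 90 to 100%. Cd36 followed, from 78.6 to 978 CPM, and Cd209b from 4.34 to 56.6 CPM. These 3 had their highest level at the periportal end. Lyve1 did not: it was at 160 CPM in the first bin, 903 CPM in the 50 to 75% bin and 733 CPM in the last. Clec4g and Fcgr2b also peaked in the 50 to 75% bin, at 5113 and 3751 CPM. Stab1 and Mrc1 peaked one bin earlier, at 1085 and 2322 CPM in the 25 to 50% bin, and so did Stab2 at 3960 CPM. The pericentral end was the lowest bin for 7 members (Lyve1, Mrc1, Clec4g, Fcgr2b, Cd36, Msr1 and Cd209b), and Stab1 was lowest at the periportal end, at 732 CPM. Scarb1, the lipoprotein receptor, was highest at the pericentral end, at 148 CPM, and at 114 CPM at the periportal end. In the 5913 cells without Ptprc or T cell panel UMIs, 4 members were again higher in periportal cells, with Msr1 at 878 against 43.9 CPM, and 4 were higher among cells with no UMI of Vwf, a gene of larger vessels.

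**Figure D2:**
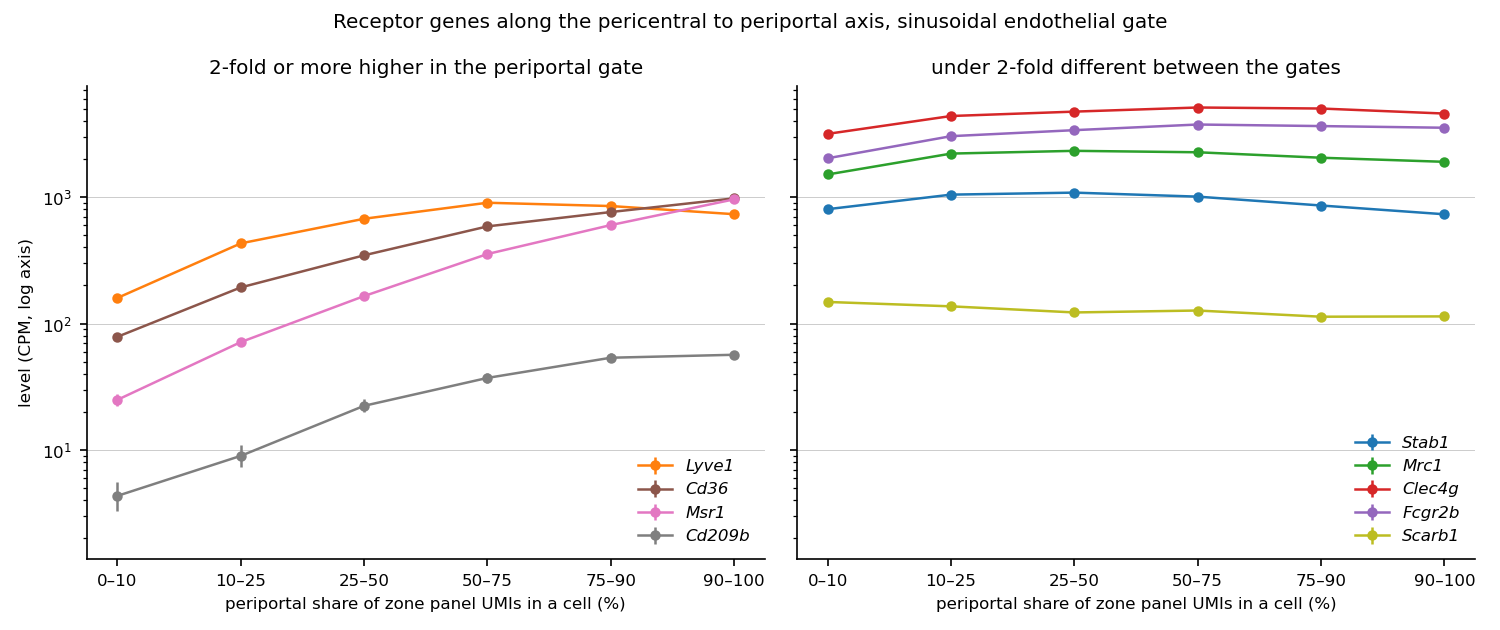
Level of each receptor gene (CPM, log axis) in 6 bins of the share of zone panel UMIs that were periportal, in sinusoidal endothelial cells of the tdTomato+ library, with 95% counting intervals, to be read within a gene. Msr1, Cd36 and Cd209b increased to the last bins, Lyve1, Clec4g and Fcgr2b were highest at 50 to 75%, and Stab1 and Mrc1 at 25 to 50%.

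Single endothelial cells carried several receptors at once. To compare cells at 1 depth, each was thinned to 3000 UMIs, which left out 687 shallower cells of 8069. A median of 6 of the 9 genes was then detected (mean 5.71, SD 1.43 over 7382 cells), and 80.5% of cells had 5 or more. The median was 5 in pericentral, 6 in unresolved and 7 in periportal cells, with 56.8%, 91.2% and 95.9% at 5 or more. Without thinning the medians were 5, 7 and 7. The number per cell thus increased towards the portal side, with the members that were higher there.

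Clec4g was detected in 98.4% of thinned sinusoidal cells, Fcgr2b in 96.6%, Mrc1 in 95.1% and Stab1 in 87.6%. T cells of the same library had a UMI of Clec4g in 11.7% and of Fcgr2b in 8.16%. Unthinned median depths were 8136 (T cell) and 7970 (sinusoidal) UMIs. Whether T cells themselves transcribe these genes was not tested. The paper lists Fcgr2b among genes enriched in tdTomato+ hepatic naive γδ T cells, compared with thymic and tdTomato− naive γδ T cells. The T cell gate here was not divided into γδ and other T cells, so the cell sets differ. Shares of sinusoidal cells were lower for Cd36 (56.6%), Lyve1 (53.1%), Msr1 (45.2%), Scarb1 (31.5%) and Cd209b (6.81%), with 0.101 to 2.17% of T cells for these 5. All 9 were above the T cell share. The commonest combination in pericentral cells was Stab1, Mrc1, Clec4g and Fcgr2b alone, in 24.1% of them. In periportal cells it was these 4 with Lyve1, Cd36 and Msr1, in 19.6%.

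Pairs of zonal genes were found together more often than the product of their shares. Cd36 and Msr1 were both detected in 35.1% of sinusoidal cells (interval 34.0 to 36.2%), against 25.6% as the product of their shares. Msr1 and Cd209b met in 4.57% against 3.08%. Within periportal cells alone, Lyve1 and Msr1 met in 45.4% (43.5 to 47.3%) against 47.0%, and Lyve1 was detected in 56.6% of cells with and 66.8% of cells without Msr1. Cd36 and Msr1 met in 67.7% of periportal cells against a product of 66.4%, and in 4.33% of pericentral cells against 2.43%. Inside the periportal gate, then, Cd36 and Msr1 lay close to the product.

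**Figure D3:**
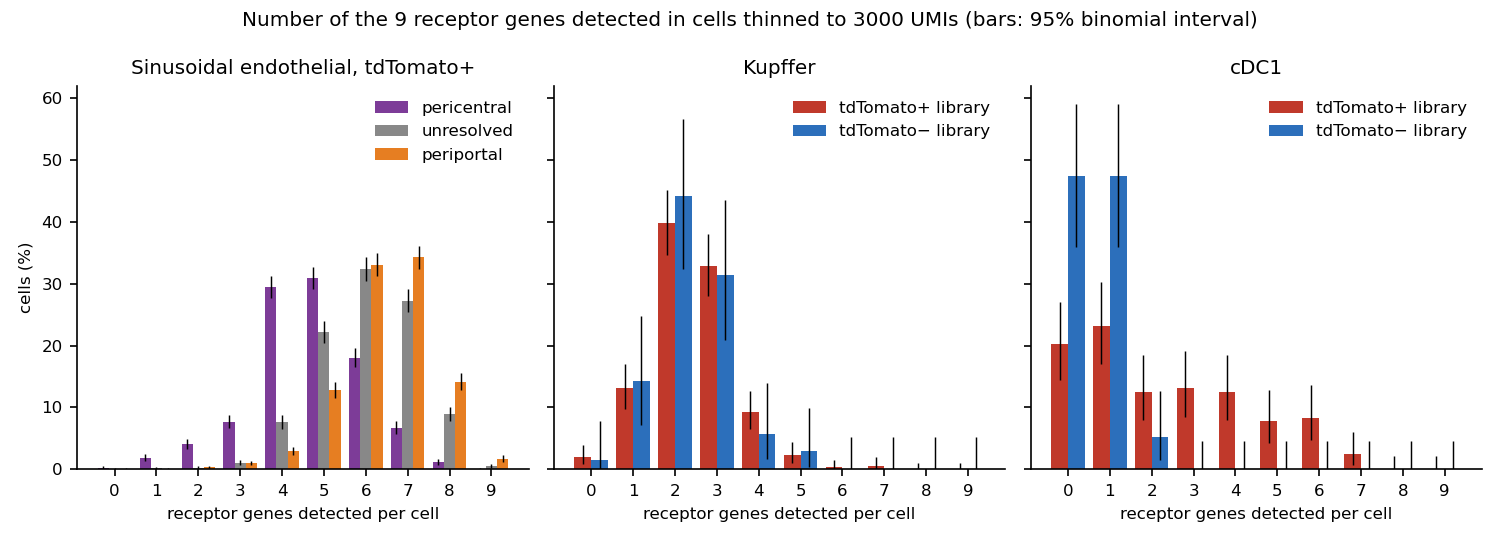
Share of cells (percent) by the number of the 9 receptor genes detected after thinning to 3000 UMIs, in the 3 endothelial zones (left), Kupffer cells (middle) and cDC1 (right), with 95% exact binomial intervals. Medians were 5, 6 and 7 in pericentral, unresolved and periportal cells, 2 in Kupffer cells of both libraries, and 2 and 1 in cDC1 of the tdTomato+ and tdTomato− library.

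Kupffer cells carried a smaller set, led by the same 3 genes in both libraries. Mrc1 was detected in 89.7% of thinned tdTomato+ and 67.1% of tdTomato− Kupffer cells, Msr1 in 70.5% and 75.7%, and Scarb1 in 46.2% and 44.3%. The commonest combination in both was Mrc1 with Msr1 (24.2% and 20%), then these with Scarb1 (22.3% and 18.6%). Mrc1, Msr1 and Scarb1 lay at 940, 440 and 218 CPM in tdTomato+ Kupffer cells and at 587, 494 and 188 CPM in tdTomato− cells, each within 2-fold. Stab1 was close too, at 56.7 and 52.7 CPM.

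Between the libraries, 3 members passed the 2-fold limit in Kupffer cells. Clec4g was higher in the tdTomato+ library (44.4 against 1.76 CPM, the latter from 2 UMIs, ratio 25.3, log2 interval 2.79 to 7.72). Lyve1 was lower (12.03 against 244 CPM, log2 -4.34, interval -4.75 to -3.96), and so was Cd36 (39.9 against 127 CPM, log2 -1.67, interval -1.98 to -1.36). The background in this comparison was 3.0% of 9323 genes higher and 4.04% lower.

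The Lyve1 difference came from few cells. In the tdTomato− library 5 of 81 Kupffer gate cells held every Lyve1 UMI, with 111, 71, 55, 34 and 7 each. These 5 were mixed in Kupffer markers. They had 0 UMIs of Clec4f (a floor of 20.3 CPM) where the other 76 cells had 5311 CPM, and they were lower in Cd5l (798 against 4037 CPM), Vsig4 (541 against 1861), Adgre1 (291 against 755), Folr2 (778 against 1346) and Cd163 (6.76 against 225). They were higher in Timd4 (1143 against 670 CPM), Marco (710 against 316) and C1qa (6844 against 5520), and in Cbr2 (1826 against 4.04). These are sums over cells that were not alike. In the order of their Lyve1 counts the 5 cells held 0, 5, 34, 66 and 0 Marco UMIs. Their Vsig4 UMIs were 48, 0, 0, 0 and 32. They had 0 UMIs of the endothelial genes Stab2, Kdr and Clec4g. In the tdTomato+ library 20 of 398 cells held 1 to 24 Lyve1 UMIs, with Clec4f at 4696 CPM and with Clec4g at 352 CPM against 16.7 CPM in the cells without Lyve1. Without the cells that held a Lyve1 UMI, Cd36 was still lower in the tdTomato+ library (34.6 against 120 CPM), and after thinning it was detected in 8.36% of tdTomato+ and 25.7% of tdTomato− Kupffer cells.

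In the tdTomato+ library, gates of other cell types also held UMIs of endothelial genes, and the members are given beside them. Oit3, Gpr182, Bmp2 and F8 are 4 endothelial genes outside the list. They belonged to the panel that defined the sinusoidal gate, so their level in it was in part set by the gate. Together they lay in T cells at 1.502% of their sinusoidal level and in Kupffer cells at 1.26%. In nonclassical and classical monocytes they lay at 4.06% and 5.15%, and in cDC1 at 13.7%. In the tdTomato− library these values were 0.119% for T cells, 0.120% for Kupffer cells, 0.0376% for classical monocytes and 0.0471% for cDC1. In T cells 8 of the 9 members lay at 1.35 to 2.46% of their sinusoidal level, near the value of the 4 genes, and Scarb1 at 5.69%. In cDC1 7 members lay at 13.3 to 19.6% and 2 stood well above, Cd36 at 54.5% and Scarb1 at 59.3%. In Kupffer cells Clec4g (0.997%), Fcgr2b (1.35%) and Lyve1 (1.97%) were near the 4 genes, Stab1 (6.15%) and Cd36 (8.38%) above them, and Cd209b (33.2%), Mrc1 (46.3%), Msr1 (125.5%) and Scarb1 (171.1%) far above.

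Library comparisons of T cells and classical monocytes follow, and the part of endothelial RNA in them was not tested beyond the values given here. T cells had 5 members higher in the tdTomato+ library (Stab1, Lyve1, Mrc1, Clec4g and Fcgr2b, with Clec4g at 86.8 against 6.87 CPM), and the other 4 stayed under 10 CPM in both. The background was 1.60% of 8669 genes higher and 2.65% lower. In classical monocytes 6 were higher (Stab1, Lyve1, Mrc1, Clec4g, Fcgr2b and Cd36) and 0 lower, with 4.51% of 8756 genes higher and 4.66% lower. There Clec4g was at 240.5 against 2.31 CPM, and Lyve1 at 15.7 CPM against 0 UMIs, at least 13.57-fold.

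Cells with no UMI of the 4 endothelial genes were then taken alone, a choice made after these values had been seen. In 67 of 176 tdTomato+ and 76 of 80 tdTomato− cDC1, with median depths of 22156 and 30059 UMIs, Cd36 lay at 196 and 191 CPM and Scarb1 at 74.0 and 69.7 CPM. Clec4g lay at 3.31 and 7.32 CPM there, where all tdTomato+ cDC1 together had 670 CPM. Fcgr2b lay at 36.4 and 23.7 CPM, and Stab1, Lyve1, Msr1 and Cd209b had 5 UMIs or fewer in either library. Mrc1 was still higher in the tdTomato+ library, at 15.9 CPM (24 UMIs, interval 10.2 to 23.6) against 2.15 CPM (5 UMIs, 0.699 to 5.02). The intervals of Cd36, and those of Scarb1, overlapped between the libraries.

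In 91 of 128 and 141 of 144 classical monocytes without such UMIs, Fcgr2b lay at 181 and 179 CPM, Msr1 at 146 and 118 CPM and Scarb1 at 96.7 and 144 CPM. Mrc1 lay at 15.9 and 15.3 CPM and Lyve1 had 0 UMIs in both. Only Stab1 of the 9 still passed both the 2-fold limit and the minimum level of 10 CPM, at 11.7 and 3.14 CPM. Clec4g lay at 9.67 and 1.96 CPM, more than 2-fold apart but just under the minimum level. The 63 such nonclassical monocytes of the tdTomato+ library carried Cd36 (307 CPM), Fcgr2b (222 CPM), Scarb1 (145 CPM) and Msr1 (134 CPM). Msr1 rested on few nonclassical cells: it was detected in 8 of 80 thinned cells, 1 of which held 18 UMIs, and in the 28 cells without any UMI of the endothelial and sinusoidal panels it lay at 28.8 CPM (8 UMIs), against 153 CPM in the 46 such classical monocytes. So the 2 monocyte gates shared Fcgr2b and Scarb1, and Cd36 was at 11.7 CPM in classical and 307 CPM in nonclassical cells of that library.

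Kupffer cells without these UMIs (327 of 398 and 77 of 81) kept Mrc1 at 961 and 625 CPM, Msr1 at 448 and 483 CPM and Scarb1 at 226 and 197 CPM. Clec4g, at 7.18 CPM (interval 4.91 to 10.1) and 1.93 CPM (0.233 to 6.96, from 2 UMIs), was no longer called. It stayed under the minimum level of 10 CPM, and the 2 intervals overlapped. Cd36 (30.1 and 112 CPM) and Lyve1 (1.80 and 108 CPM) still passed, joined by Fcgr2b (12.6 and 41.4 CPM). In all tdTomato− Kupffer cells the 5 with Lyve1 held 67 Fcgr2b UMIs (453 CPM) and the other 76 held 23 (23.2 CPM, against 19.95 CPM in tdTomato+ cells without Lyve1), so the Fcgr2b level of the whole tdTomato− gate rested largely on those 5. In 1647 and 8394 such T cells no member exceeded 16.2 CPM, but the library difference was still present. Clec4g lay at 16.2 and 4.80 CPM and still passed the limits. Stab1 (4.18 and 0.750 CPM), Lyve1 (2.43 and 0.627), Mrc1 (6.34 and 1.58) and Fcgr2b (9.58 and 3.94) were also higher in the tdTomato+ library, under the minimum level.

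**Figure D4:**
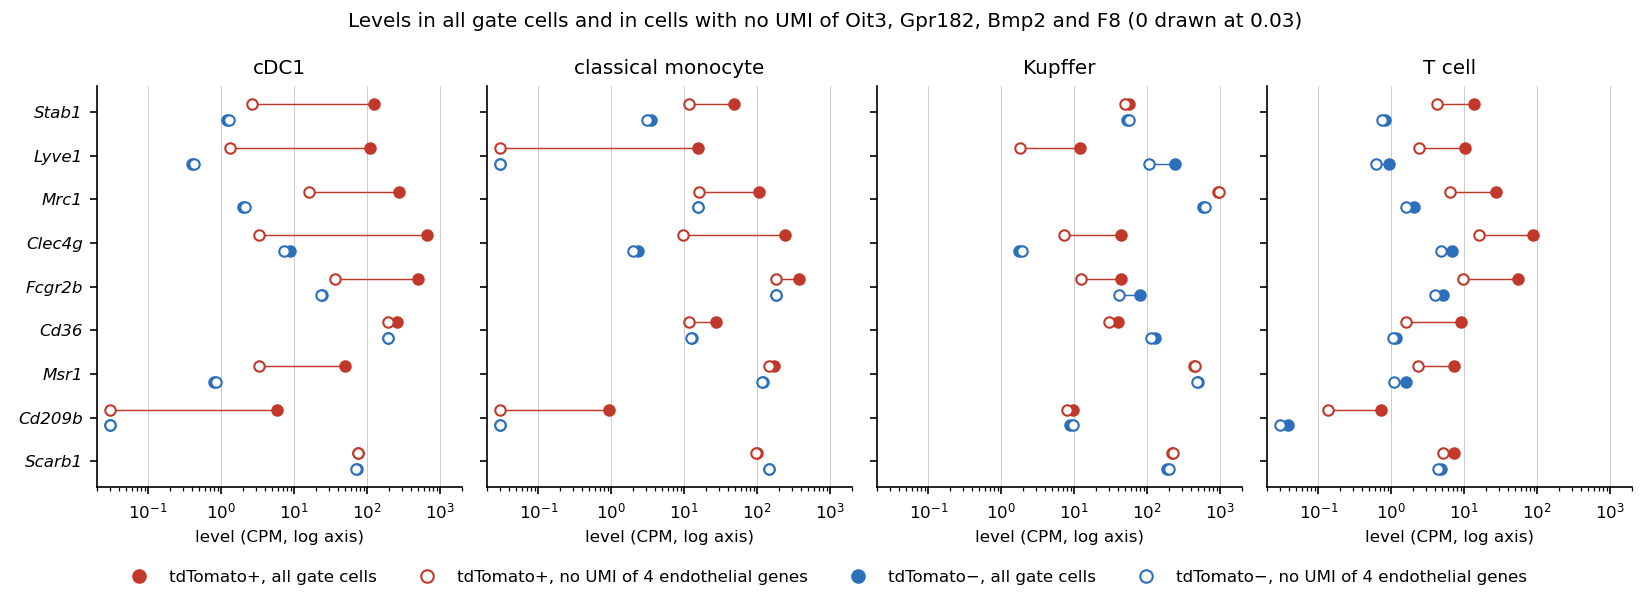
Levels (CPM, log axis, 0 drawn at 0.03) of the 9 genes in all cells of a gate (filled) and in its cells with no UMI of Oit3, Gpr182, Bmp2 and F8 (open), in the tdTomato+ (red) and tdTomato− (blue) library. In cDC1 the open points of Cd36 (196 and 191 CPM) stayed by the filled ones, while Clec4g in the tdTomato+ library moved from 670 to 3.31 CPM.

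Genes whose log2(CPM + 1) ran most alike with each member over the 19 gates of at least 50 cells (zones counted separately) were named for description, out of 12777 genes, and the points of a library share its depth and its background RNA. For Clec4g these were Kdr, Igfbp7 and Aqp1 (Pearson r 0.99, 0.98 and 0.98), of which Kdr and Aqp1 belonged to the endothelial panel. For Stab1 they were Dlc1, Tcim and Tfpi (0.98 each), for Mrc1 Dab2, Itga9 and Gm4951 (0.98, 0.97 and 0.96), and for Lyve1 Cald1, Stab1 and Plpp3 (0.94, 0.93 and 0.93). Fcgr2b went with Pcdh17, Emcn and Zfp697 (0.92 each). Msr1 went with Gm5431, Pde7b and Ifi204 (0.94, 0.93 and 0.92), Cd36 with Cdc42bpb, Iqcn and Laptm4b (0.93, 0.90 and 0.89), Scarb1 with Cmtm3, Acer3 and Tcp11l1 (0.96, 0.95 and 0.95), and Cd209b with Nr6a1, 3222401L13Rik and Il1a (0.94, 0.92 and 0.91).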

How the data were processed

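The authors made the counts with Cell Ranger (version 10.0.0 in the matrix header, mm10 in the submitters' processing notes) from 10x Genomics 5′ libraries and deposited them as unnormalized counts (UMIs of each gene in each barcode). The receptor sequence libraries were not used here. Everything else was computed from those counts with scipy 1.17.1, numpy 2.4.6, scanpy 1.11.5, leidenalg 0.10.2, pandas 2.3.3 and matplotlib 3.10.9 in python 3.11.15.

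A cell needed at least 300 genes and at most 10% mitochondrial UMIs. A cell entered the gate of its highest of 12 panel scores, where a score is the panel's CPM over the median of the 50 highest cells. The score had to reach 0.2 with 5 UMIs of 3 panel genes, and the next score had to stay at or below 0.33 of it, so droplets with mixed panels fell in no gate. No doublet caller was run. Sinusoidal cells also needed 3 UMIs of Oit3, Gpr182, Dnase1l3, Bmp2, F8 or Ehd3, and a zone needed 3 zone panel UMIs with 75% from 1 panel. Counts were summed per gate and library and compared as CPM. A ratio counted when 1 gate reached 10 CPM, the ratio was at least 2 and its 95% exact conditional binomial interval excluded no difference. Thinned cells kept 3000 UMIs drawn at random. The comparison of counts was tested on simulated data. PCR copies are collapsed by UMI, and intervals cover counting error only. Gates described held from 471619 (B cells of the tdTomato− library) to 77572449 UMIs.

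Named genes were the 9 members, those of 38 other receptors and 20 machinery genes past the limit, and the 3 genes most like each member. A gene of the receptor list is counted but not reported here by name. The members and lists were chosen with earlier results of these data known. Alternatives were other cell filters, gate limits, clusters, scaling, thinning, a level minimum of 0 and a fold limit of 1.5.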

Additional observations from a re-analysis of the deposited data

Results flagged for a closer look

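Between the libraries, 2 members went opposite ways in different cell types, and the difference between the types was not tested because each condition has 1 library. Lyve1 was lower in tdTomato+ than in tdTomato− Kupffer cells (log2 -4.34) but higher in T cells (log2 3.47), cDC1 (8.09, from 1 UMI in the tdTomato− library) and classical monocytes. Cd36 was lower in tdTomato+ Kupffer cells (log2 -1.67) but higher in classical monocytes (1.12). In neutrophils Cd36 was at 61.5 CPM in the tdTomato+ library against 0 UMIs, and Lyve1 at 36.3 against 12.3 CPM. In B cells Lyve1 was at 65.8 CPM against 0 UMIs. Neutrophils and B cells were not recomputed without endothelial UMIs. Without cells holding UMIs of Oit3, Gpr182, Bmp2 or F8 the Kupffer values were -5.91 for Lyve1 and -1.89 for Cd36, and that of Cd36 in classical monocytes was -0.10. With the same cells left out Lyve1 had 0 UMIs in classical monocytes of both libraries, 2 and 1 UMIs in cDC1 and 2.43 and 0.627 CPM in T cells, all under the minimum level of 10 CPM. The Lyve1 value in tdTomato− Kupffer cells rested on 5 of 81 cells.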

How the results depend on the processing

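The counts of members past the limit stayed within 1.5 times for the endothelial to Kupffer comparison and stayed at 4 for the zones under every alternative run, and the median of detected members was 6, or 5 with 1500 UMIs per cell and 7 without thinning. Library counts moved. In Kupffer cells 5 instead of 3 members passed with a next score of at most 0.2 and with a fold limit of 1.5. In T cells 5 became 3 with a next score of at most 0.2 or an own score of at least 0.4, 8 without a limit on the next score or without a minimum level, 0 after subtraction of the B cell level (which says nothing about these members, since all 5 were higher in tdTomato+ B cells than in T cells), and 1 in cells without UMIs of the endothelial panels or of Oit3, Gpr182, Bmp2 and F8. In classical monocytes 6 became 3 with a next score of at most 0.2 or with means of single-cell CPM, 0 in cells without UMIs of the endothelial panels and 1 without those of the 4 genes. There Mrc1 (log2 -0.072), Fcgr2b (-0.15) and Cd36 (-0.32) changed sign in cells without UMIs of the panels, and Cd36 (-0.10) without those of the 4 genes. Of 308 recomputed ratios of called members 274 were called the same way and 34 were not. Leiden clusters gave no value for Kupffer cells and monocytes, since none of the clusters met the naming rule for them. The alternatives without Ptprc, Vwf, Lyve1 or endothelial UMIs were chosen after seeing the data. No paired analysis was possible because each condition has 1 library. Levels near 1 UMI, such as Cd209b in monocytes, are limited by depth.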

Other observations

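Cells in no gate also held the receptors: in 6225 such tdTomato+ cells Clec4g lay at 1549 CPM, Fcgr2b at 1210, Mrc1 at 714 and Cd209b at 12.2 CPM, and in 8670 tdTomato− cells at 33.3, 55.5, 49.3 and 0.730 CPM. Fcgr2b, which B cells carry as their inhibitory Fc receptor, reached 202 CPM in the 96 B cells of the tdTomato+ library (37.5% of thinned cells) and 134 CPM in the 66 of the tdTomato− library (25% of thinned cells). These tdTomato+ B cells also held Clec4g at 131.5 CPM, and Oit3, Gpr182, Bmp2 and F8 at 2.40% of their sinusoidal level. In tdTomato− B cells the values were 0 CPM and 0.0414%. The part of endothelial RNA in the Fcgr2b level was not tested. In 57 tdTomato− plasmacytoid dendritic cells Scarb1 was at 65.0 CPM, with 0 UMIs of Stab1, Lyve1, Mrc1, Msr1 and Cd209b. Of the other receptor list, Cd209f (63.8 against 136 CPM) and Cd209g (13.2 against 45.7 CPM), relatives of Cd209b, were at least 2-fold lower in tdTomato+ than in tdTomato− Kupffer cells, and none of the list was higher there.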
